A study of Homo sapiens with 4 samples.

Results

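The enzymes that reduce quinones, break down haem and supply reduced thiols were measured in A549 cells with and without embelin (15 µM for 4h). They are 9 genes, NQO1, HMOX1, GCLC, GCLM, SRXN1, TXNRD1, TXN, OSGIN1 and PGD, of 30970 gene names on the array. They were chosen with earlier results of these data known, and found on the array by gene name or RefSeq transcript alone. They are read by 12 of the 50238 probes, and all 12 were well above background on all 4 arrays, with no saturated spot and no spot marked as an outlier. A549 cells are an established line from a human lung adenocarcinoma and carry a mutated KEAP1. Embelin, a benzoquinone of plant origin, bears an alkyl side chain, and the study looked for the pathways at work at an early time of embelin-induced apoptosis. There were 2 untreated control samples (0 µM) and 2 embelin samples, each on 1 single-colour array. All 4 samples had been moved from growth medium to medium with 2% serum 12 h before the treatment.

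The 9 genes serve several routes. NQO1 reduces quinones directly to hydroquinones, which bypasses the semiquinone radical. GCLC and GCLM make glutathione, TXN, TXNRD1 and SRXN1 keep protein thiols reduced, PGD supplies NADPH and HMOX1 removes haem, while OSGIN1 is a stress-induced growth inhibitor. Most of their genes are classical targets of the transcription factor NRF2, which binds antioxidant response elements. KEAP1 holds NRF2 down until electrophiles, quinones among them, modify its cysteines, and BACH1 represses HMOX1 from the same elements. In A549 cells the mutated KEAP1 leaves NRF2 active without any treatment, so that the untreated controls are not cells with the pathway at rest.

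Values are log2 signals after each array was scaled to a common 75th percentile, on which 1 unit is a doubling. Each probe is a 60-base oligonucleotide with its own brightness, so that values are compared between samples of 1 probe and never between probes. The first 30 bases of the probes on which the largest differences and the 2-probe comparisons rest are printed here, as read on the array, 5′ to 3′.
HMOX1: tggggagggaggtgtttaacggcactgtgg
GCLC, brighter probe: agaatgcctggttttcgtttgcaatttgct
GCLC, dimmer probe: ctctcagcccgtgtgtataatatgaagacc
GCLM, brighter probe: atttattgtatgttggctagcagttcatcc
GCLM, dimmer probe: atcaaatcaaaaggctacattttacaagct
TXN, brighter probe: ggacaaaaggtgggtgaattttctggagcc
TXN, dimmer probe: aagtagatgtggatgactgtcaggatgttg
The longest run of bases shared by the pair of probes of a gene was 6 for GCLC, 5 for GCLM and 5 for TXN, so that the probes of a pair read different stretches of the transcript. GC content of the 12 probes lay between 35.0% and 55.0%.

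The 4 arrays shared 1 slide and 1 scan, with the controls at positions 4 and 1 and the embelin samples at positions 2 and 3. The share of probes well above background was 66.75% for control 1, 50.29% for control 2, 51.15% for embelin 1 and 66.41% for embelin 2. In each group 1 array thus had a lower share. The epithelial markers KRT8, KRT18, KRT19, EPCAM and CDH1 passed the background filter. Of 7 markers of other cell types, CD68 and CD3E passed the filter, CD68 with signals of 9.94 to 10.65 and CD3E with 4.85 to 7.01, while PTPRC, PECAM1, VWF, COL1A2 and DCN did not pass it. Neither of these 2 was called, and their part in the results was not tested. Both had embelin samples above both controls, with log2 differences of 0.39 for CD68 and 1.25 for CD3E. CD3E was well above background on only 3 of the 4 arrays. Limma tested 17649 genes with Benjamini-Hochberg adjustment, and a call means an adjusted p under 0.05. The precision is limited by 2 arrays per group, since no exact permutation test (two-sided) of groups of this size goes below p = 0.333.

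Embelin and control differed most in HMOX1 among the 9 genes, at 4.24-fold higher signal with embelin, and least in TXN and NQO1. After adjustment over all genes limma called 0 of the 9, in either direction, at a background of 1.25% of all genes called higher, 0.561% called lower and 1.81% called either way. Before adjustment HMOX1 and GCLC had p under 0.05, where 19.5% of all genes did. By the study's own rule, at least 2-fold with unadjusted p under 0.05, 1 of the 9 was higher (HMOX1) and 0 were lower, against 4.27% and 3.99% of all genes. In RNA from whole cultures, fewer cells of a kind and less RNA per cell cannot be told apart.

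HMOX1 encodes haem oxygenase 1, which opens the haem ring to biliverdin, iron and carbon monoxide. Its gene lies at chr22:35381096-35394207 in the RefSeq table (GRCh38.p14). The log2 signal was 13.73 and 14.25 in the controls and 16.25 and 15.90 in the embelin samples. Both embelin samples lay above both controls. The group means were 13.99 ± 0.37 and 16.08 ± 0.24 (SD, n = 2 each), a difference of 2.08 in log2 with an SE of 0.27 and a 95% interval from 1.35 to 2.82, or 2.56-fold to 7.04-fold. Limma's unadjusted p was 0.00124 and its adjusted p 0.0546, so that this difference missed the threshold. The 4 differences of 1 embelin sample minus 1 control ran from 1.65 to 2.52. Within the pair of arrays with the higher share of probes well above background, embelin 2 minus control 1, the difference was 2.17. Within the pair with the lower share, embelin 1 minus control 2, it was 2.00. In the order of log2 fold change over all genes tested, HMOX1 stood 305th from the top, at percentile 98.3. HMOX1 was called in 3 of the 11 alternatives of processing that keep all arrays. Limma's adjusted p was 0.0244 under normexp background correction, 0.0227 with the filter asking for all 4 arrays and 0.00682 by eBayes with trend and robust. Under the replicate block, the methods' t-test, array position as a covariate and no filter on dim probes no gene at all was called.

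**Figure D1:**
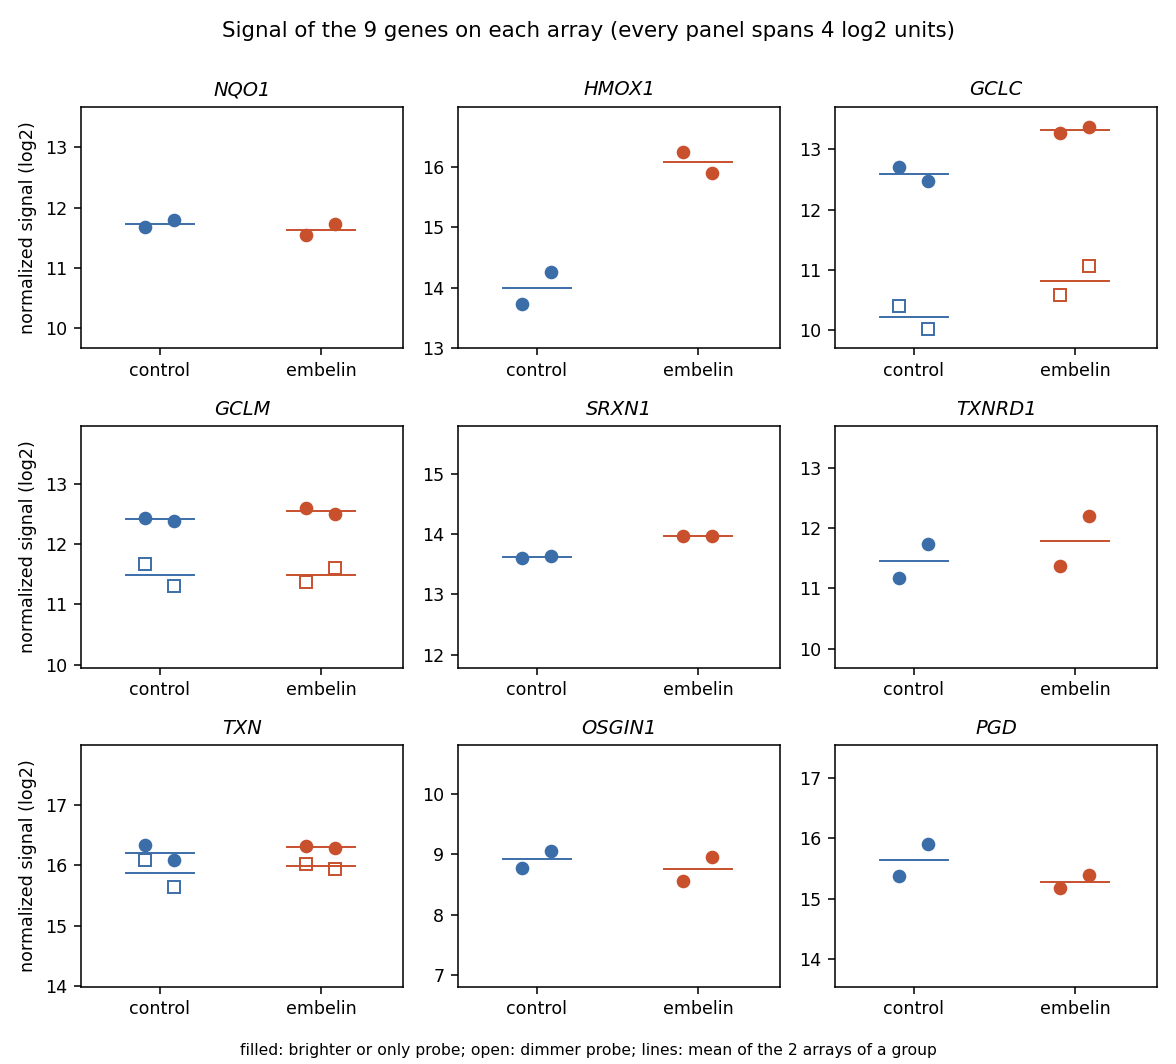
Normalized log2 signal (y axis) of the 9 genes in the 2 control and 2 embelin arrays, with filled circles for the brighter or only probe, open squares for the dimmer probe and lines for the mean of a group. Every panel spans 4 log2 units with its own start, and the HMOX1 panel shows controls at 13.73 and 14.25 against embelin samples at 16.25 and 15.90.

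GCLC and GCLM encode the subunits of glutamate-cysteine ligase, the rate-limiting enzyme of glutathione synthesis, and neither was called. GCLC is the catalytic subunit, at chr6:53497341-53545101. Its brighter probe read 12.70 and 12.47 in the controls and 13.27 and 13.37 with embelin, which placed both embelin samples above both controls. The difference was 0.74 in log2 with an SE of 0.18 and a 95% interval from 0.25 to 1.22, or 1.66-fold, with limma's unadjusted p of 0.0132 and adjusted p of 0.137. It passed adjustment in 1 of the 11 alternatives that keep all arrays, eBayes with trend and robust, at limma's adjusted p of 0.0424. The dimmer GCLC probe read 10.41 and 10.03 in the controls and 10.59 and 11.06 with embelin, again without overlap. Its difference was 0.61, and limma's adjusted p over all probes was 0.346.

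GCLM, the modifier subunit that lowers the enzyme's need for glutamate, lies at chr1:93885199-93909430. The brighter GCLM probe read 12.43 and 12.38 in the controls and 12.59 and 12.50 with embelin. These groups did not overlap, but the difference was 0.14 in log2 with an SE of 0.16 and limma's adjusted p of 0.698. On the dimmer probe the values overlapped, at 11.66 and 11.31 against 11.37 and 11.59, and the difference was -0.0021. The 95% interval of the brighter probe, from -0.30 to 0.58, lies below a 2-fold rise and overlaps that of GCLC, and the difference between the subunits was not tested.

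Among the thiol enzymes, SRXN1 is sulfiredoxin, which repairs over-oxidized peroxiredoxins, and its gene lies at chr20:646615-653200. Its signal was 13.60 and 13.63 in the controls and 13.97 and 13.97 in the embelin samples. The samples of each group lay close together, and the groups did not overlap. The difference was 0.36 with an SE of 0.16 and limma's adjusted p of 0.321, and it stayed between 0.34 and 0.37 under all 15 alternatives. That SE rests mostly on the variance limma shares over all genes, since the SDs were 0.019 in the controls and 0.0015 with embelin.

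TXNRD1 encodes the cytosolic thioredoxin reductase, which uses NADPH to reduce thioredoxin, and lies at chr12:104215779-104350307. Its signal was 11.17 and 11.74 in the controls and 11.37 and 12.20 with embelin. The groups overlapped, since embelin 1 lay between the controls. The difference was 0.33 with a 95% interval from -0.72 to 1.37, the widest of the 9, and limma's adjusted p was 0.697. This value moved with each array. It was -0.09 without embelin 2, 0.05 without control 1, 0.61 without control 2 and 0.75 without embelin 1.

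TXN, thioredoxin itself, lies at chr9:110243810-110256507. The brighter TXN probe read 16.34 and 16.08 in the controls and 16.32 and 16.28 with embelin, and the dimmer probe 16.10 and 15.64 against 16.03 and 15.93. In both probes the embelin samples lay between the controls. The difference of the brighter probe was 0.09 with a 95% interval from -0.41 to 0.58 and limma's adjusted p of 0.844, and that of the dimmer was 0.11.

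NQO1, NAD(P)H quinone dehydrogenase 1, lies at chr16:69709401-69726560. Its signal was 11.68 and 11.79 in the controls and 11.54 and 11.73 with embelin. The groups overlapped, and the difference of -0.10 had an SE of 0.17. A 2-fold change either way lies outside its 95% interval, from -0.57 to 0.38. Limma's adjusted p was 0.818.

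PGD is the phosphogluconate dehydrogenase of the pentose phosphate pathway, which makes NADPH, and lies at chr1:10399064-10420511. It read 15.37 and 15.91 in the controls and 15.17 and 15.39 with embelin. The groups overlapped, because embelin 2 lay just above control 1. The difference was -0.36 with a 95% interval from -1.06 to 0.34 and limma's adjusted p of 0.504. The size moved with the control arrays, to -0.09 without control 2 and -0.63 without control 1.

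OSGIN1, oxidative stress induced growth inhibitor 1, lies at chr16:83953240-83966332. Its signal was 8.77 and 9.06 in the controls and 8.55 and 8.96 with embelin. These ranges overlapped, and the difference was -0.16 with a 95% interval from -0.80 to 0.48 and limma's adjusted p of 0.766. It was 0.04 without embelin 1, -0.02 without control 2, -0.31 without control 1 and -0.37 without embelin 2.

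**Figure D2:**
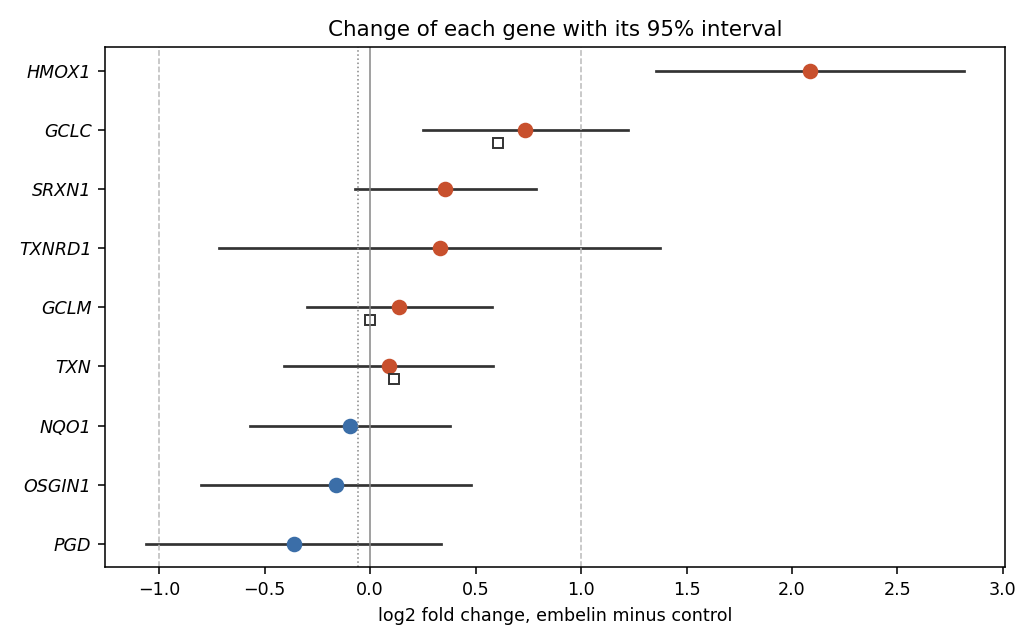
Log2 fold change of embelin minus control (x axis) for each of the 9 genes, with circles for the value, bars for its 95% interval and open squares for a gene's dimmer probe. Dashed lines mark 2-fold and the dotted line the median of all genes, -0.06. The interval of HMOX1, from 1.35 to 2.82, lies wholly above the 2-fold line, and the interval of GCLC, from 0.25 to 1.22, lies above 0.

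Of the 9 genes, 6 had a log2 fold change above 0 and 3 below it, with a median of 0.14, or 0.11 without HMOX1, beside -0.06 for all genes tested. In 4 of them, HMOX1, GCLC, GCLM and SRXN1, both embelin samples lay above both controls, as in 21.1% of all genes measured on all 4 arrays. In 0 of them did both lie below, as in 30.7% of all genes. The intervals of 6 of the 9 lay below a 2-fold rise, and 5 of these lay within 2-fold either way. Those 6 were NQO1, GCLM, SRXN1, TXN, OSGIN1 and PGD, the last of which reached past a 2-fold fall. HMOX1 and GCLC had intervals above 0. In 7 of the other 8 genes the upper bound lay under the lower bound of HMOX1, the exception being TXNRD1. Whether the change of HMOX1 differed from those of the other genes was not tested.

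The other genes of the same pathways were taken from 6 lists of 100 genes in all, of which 97 passed the background filter and PRDX2, SLC40A1 and SOD3 did not. Limma called 1 of the 97 higher and 0 lower after adjustment, at backgrounds of 1.25% and 0.561%. Their median log2 fold change was -0.10, with 37 above 0 and 60 below it, beside -0.06 for all genes. In 12 of the 97 both embelin samples lay above both controls and in 34 both lay below, or 12.4% and 35.1% against 21.1% and 30.7% of all genes.

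The called gene was CHAC1, a glutathione-degrading gamma-glutamylcyclotransferase and a known target of the integrated stress response, which rose. It read 9.64 and 9.57 in the controls and 11.48 and 11.37 with embelin. The difference was 1.82 with an SE of 0.16, or 3.52-fold, and limma's adjusted p was 0.0357. A fit with 1 of the 4 arrays left out leaves 1 sample in a group and can judge no call. In these fits the log2 difference of CHAC1 was 1.76 to 1.87. Of the 29 genes of glutathione synthesis and use, the others gave no call, and the list had a median of -0.06. GLRX, which removes glutathione from protein thiols, was the other gene to pass the study's rule. It read 12.99 and 13.19 in the controls and 14.10 and 14.16 with embelin, 2.05-fold higher with limma's adjusted p of 0.0786. SLC7A11, the cystine carrier that feeds glutathione synthesis and a classical NRF2 target chosen after its values were seen, read 11.15 and 10.48 against 10.57 and 11.37, with overlap.

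The 10 genes of quinone and xenobiotic reduction beside NQO1 gave 0 calls, a median of -0.10 and a range from -0.50 to 0.17. The largest differences were -0.50 for EPHX1, a microsomal epoxide hydrolase, and -0.24 for UGDH, which makes UDP-glucuronate. Of EPHX1 and UGDH, only EPHX1 was without overlap, at 11.705 and 11.665 in the controls and 10.995 and 11.384 with embelin. Limma's adjusted p for EPHX1 was 0.303. A second UGDH probe gave -0.39, with overlap.

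The thioredoxin and peroxiredoxin system gave 0 calls among 19 genes tested, with a median of -0.10. The methionine sulfoxide reductases MSRB3 and MSRB1 had the largest values, -1.76 and -0.52. MSRB3 rests on control 2, which read 13.64 where the other 3 samples read 10.04 to 10.15. Without control 2 the difference was 0.02, and a second MSRB3 probe gave -0.02. MSRB1 read 11.91 and 12.21 in the controls and 11.70 and 11.37 with embelin, with limma's adjusted p of 0.303, and a second MSRB1 probe gave -0.34 with overlap and an adjusted p of 0.5285 over all probes.

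The 15 genes of the pentose phosphate pathway and NADPH supply gave 0 calls, with 4 above 0, 11 below it and a median of -0.15. The largest difference was -0.63 for NADK, the cytosolic NAD kinase. NADK read 10.92 and 11.58 in the controls and 10.49 and 10.74 with embelin, without overlap, and limma's adjusted p was 0.340. A second NADK probe gave -0.91, with overlap, at 7.94 and 9.91 in the controls and 7.66 and 8.36 with embelin. The NADK difference was -0.31 without control 2 and -0.96 without control 1.

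For haem synthesis, haem breakdown and iron storage, 0 of the 19 genes tested were called, and the range was from -0.36 to 0.30. The largest differences were -0.36 for HMOX2, the constitutive haem oxygenase, and -0.36 for SLC48A1, a haem transporter. HMOX2 read 12.21 and 12.51 in the controls and 11.85 and 12.15 with embelin, and a second probe gave -0.65, both without a call. A second SLC48A1 probe gave -0.62, with limma's adjusted p of 0.367 over all probes. The steps after HMOX1, chosen after their values were seen, showed differences of 0.24 for ferritin heavy chain (FTH1), 0.08 for ferritin light chain (FTL), -0.36 for BLVRA and -0.02 for BLVRB, the biliverdin reductases.

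Of the 6 genes of superoxide and peroxide removal 5 were tested and 0 were called. SOD2, the mitochondrial superoxide dismutase, read 12.67 and 12.74 in the controls and 13.51 and 13.23 with embelin, a difference of 0.66 with limma's adjusted p of 0.173. A second SOD2 probe was not well above background on 1 of the 4 arrays. It read 5.00 and 3.54 in the controls and 7.35 and 7.34 with embelin, a difference of 3.08. Limma's adjusted p for this probe was 0.0891 over all probes. As the mean over its probes SOD2 had a difference of 1.87, also without a call. CAT, catalase, had a difference of -0.38.

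**Figure D3:**
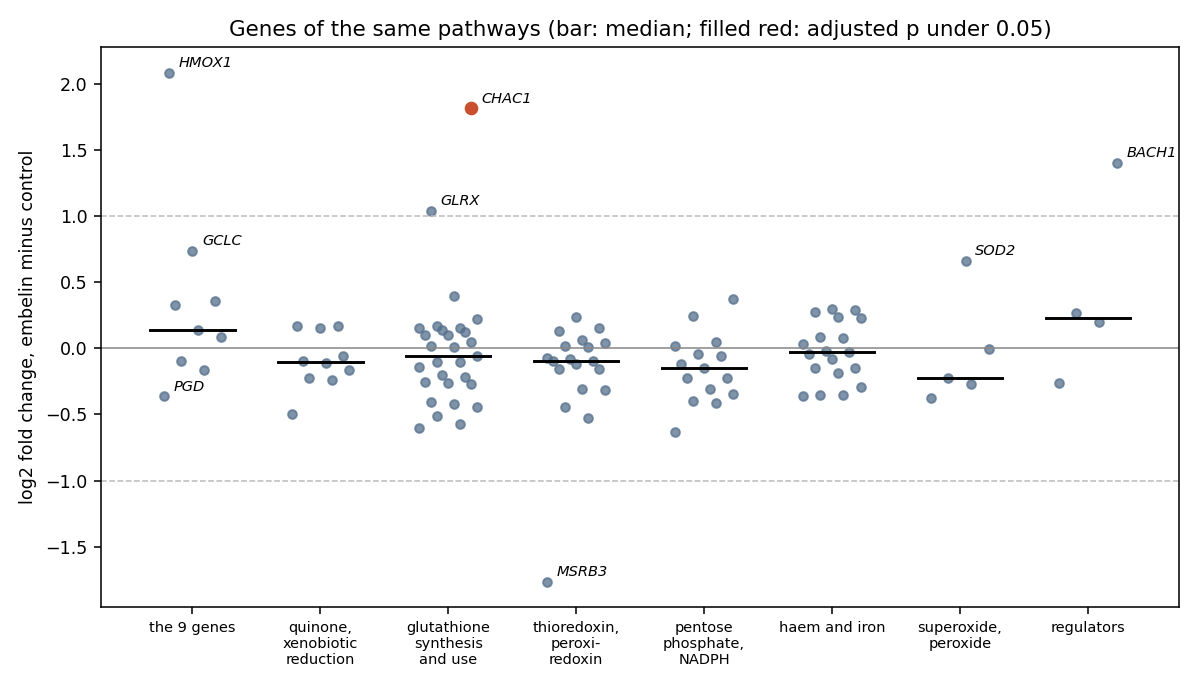
Log2 fold change of embelin minus control (y axis) of each tested gene of the 9 enzymes, the 6 other pathway lists and the regulators, with a bar for each list's median and a filled red point for the gene with adjusted p under 0.05, CHAC1. Dashed lines mark 2-fold, HMOX1 stands at 2.08 and BACH1 at 1.41, and the medians of the 6 other lists lie between -0.23 and -0.03.

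Of the 4 regulators, BACH1 had the largest difference. The BACH1 signal was 9.50 and 9.31 in the controls and 10.77 and 10.85 in the embelin samples, without overlap. The difference was 1.41 with an SE of 0.17 and a 95% interval from 0.93 to 1.88, or 2.65-fold higher with embelin. Limma's adjusted p was 0.0521, so that BACH1, like HMOX1, passed the study's rule and missed the adjusted threshold. The 3 alternatives that called HMOX1 called BACH1 too, with limma's adjusted p of 0.0263 under normexp, 0.0231 with the filter asking for all 4 arrays and 0.0109 by eBayes with trend and robust. NFE2L2, which encodes NRF2, had a difference of 0.20 on its brighter probe and -0.50 on the other, both with overlap between the groups. KEAP1 was at -0.26 with limma's adjusted p of 0.575. MAFG, a small Maf partner of both NRF2 and BACH1, was at 0.26 with limma's adjusted p of 0.507. A second MAFG probe gave 0.43, without overlap, with limma's adjusted p of 0.431 over all probes.

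The genes whose 4 values, centred on their own mean, lay nearest to those of HMOX1 were PPP1R3C, GDF15 and PCSK1, at root mean square distances of 0.102, 0.147 and 0.157 in log2 over 4 arrays and among 17289 candidates. PPP1R3C targets protein phosphatase to glycogen, GDF15 is a secreted stress cytokine and PCSK1 a prohormone convertase. All 3 were called, with differences of 2.01 for PPP1R3C, 2.08 for GDF15 and 2.31 for PCSK1. Limma's adjusted p was 0.0406, 0.0380 and 0.0381. With 1 array left out, a fit that can judge no call, the differences were 1.849 to 2.175, 1.911 to 2.244 and 2.076 to 2.537. A difference of like size follows from how these 3 were chosen. The SE was 0.27 for HMOX1, 0.20 for PPP1R3C, 0.20 for GDF15 and 0.22 for PCSK1. For GCLC the nearest were CATSPER1, TNIP1 and ARHGEF15, at distances of 0.018, 0.023 and 0.025, and none of these was called.

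Promoters were searched for the core of the antioxidant response element, TGACNNNGC on either strand, in windows from 250 bases before to 50 after each start site in the RefSeq table (GRCh38.p14). The table holds 9 windows of 8 of the genes, all but HMOX1. The core was present in 4 of these windows, of GCLM, PGD and TXNRD1 (2 windows), and in 13.3% of all 35116 windows. The matches whose 20 flanking bases on each side lie before the start site are shown on the strand of the gene, with the core in capitals, since NRF2 and BACH1 both bind such elements.
GCLM, chr1:93909436-93909484, minus strand: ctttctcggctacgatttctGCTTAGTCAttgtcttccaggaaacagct
PGD, chr1:10398843-10398891, plus strand: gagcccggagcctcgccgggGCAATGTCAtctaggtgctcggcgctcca
TXNRD1, chr12:104215660-104215708, plus strand: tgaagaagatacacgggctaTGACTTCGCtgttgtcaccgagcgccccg
TXNRD1, chr12:104286910-104286958, plus strand: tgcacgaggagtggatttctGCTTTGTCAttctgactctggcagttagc
A further match in a TXNRD1 window, at chr12:104215771-104215779, reaches the start site and is not printed. The 3 genes with a match had differences of 0.14 for GCLM, -0.36 for PGD and 0.33 for TXNRD1. GCLC and SRXN1, whose embelin samples lay above both controls, had no match in these windows, which says only that these letters are not there. The core of the heat shock element, GAANNTTC, was in 6.77% of all windows and the E-box CACGTG in 7.26%, and neither was in a window of the 8 genes. The AP-1 site TGANTCA was in 7.71% of all windows and, of these genes, in OSGIN1.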

How the data were processed

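RNA of A549 cells was labelled with Cy3 and hybridized to Agilent oligonucleotide arrays, 2 control and 2 embelin samples. The authors deposited background-subtracted spot intensities without normalization between arrays, from the software Feature Extraction (10.7.3.1 in the file headers). A second deposited table gave these intensities as averages per probe. Of 50238 probes, 97 to 117 per array departed from that average by over 0.001 in log2.

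Here each array was scaled to a common 75th percentile (675, or 9.40 in log2), as in the methods, with a floor of 1. Spots marked as outliers were left out and the spots of a probe averaged. A probe was kept where it was well above background on both arrays of either group (26146 probes), and the brightest kept probe stood for its gene. Probes were named by accession in a RefSeq table (28595), through another probe of the same name (2341) or as in the files (19302). The 2 groups were compared by limma 3.58.1 (lmFit, eBayes) in R 4.3.3 with Benjamini-Hochberg adjustment over 17649 genes, and the fit was tested on simulated data. The labels do not say that replicates were separate cultures, so p-values measure only the spread between these samples. Limma's eBayes moves each gene's variance towards a value shared by all genes (prior SD 0.217 in log2, 2.17 degrees of freedom). No coordinate was taken from the arrays.

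The members, lists and alternatives were chosen with earlier results of these data known. The genes named are the 9 members and their probes, in each other list every gene called after adjustment or otherwise the 2 with the largest change among those well above background on all 4 arrays, the regulators NFE2L2, KEAP1, BACH1 and MAFG, and for the 2 members with the largest change the 3 genes of the nearest profile. A few genes of the rule and the marker lists are left unnamed here and still enter the counts. Alternatives were normexp (offset 50), quantile normalization, the deposited table, no filter or a filter asking for all 4 arrays, eBayes with trend and robust, the methods' t-test, a replicate block, the mean over probes, array position as a covariate, outlier spots kept, and each array left out. Same-numbered samples deviated together with a correlation of 0.18, which with 2 samples per group cannot decide whether the numbers pair them. The comparison was made without pairs, with the replicate block as an alternative.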

Additional observations from a re-analysis of the deposited data

How the results depend on the processing

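Of the 9 genes, the count called higher after adjustment was 1 under normexp, 1 with the filter asking for all 4 arrays and 2 by eBayes with trend and robust, and 0 under the other alternatives, while 1 gene passed the study's rule under all 15. HMOX1 ranged from 1.82 to 2.35 in log2 with adjusted p from 0.00682 to 0.412, the latter with no filter on dim probes, and was called in 3 of the 11 alternatives that keep all arrays. With the replicate block its adjusted p was 0.107, and limma called 0 of all genes higher and 0 lower, beside 221 and 99 as reported. With the methods' t-test (adjusted p of HMOX1 0.255), array position as a covariate (0.101), no filter on dim probes or any 1 array left out (range 0 to 0) the counts were likewise 0 and 0, and that of other pathway genes called higher, 1 as reported, was 0. Genes called higher and lower numbered 422 and 277 under normexp, 126 and 33 with the deposited table, 419 and 345 with the filter asking for all 4 arrays, 566 and 495 with trend and robust, and 137 and 40 with outlier spots kept. Genes called lower were 63 after quantile normalization and 56 with the mean over probes. Other pathway genes called higher were 2 under normexp, 2 with the filter asking for all 4 arrays and 2 with trend and robust. The cause of these changes was not tested. An omitted array leaves fewer samples, and an added term leaves lower degrees of freedom. By their adjusted p, CHAC1 kept its call in 7 of 11 alternatives that keep all arrays, and PPP1R3C, GDF15 and PCSK1 each in 5. Alternatives that called no gene at all cannot judge the call of a single gene. All probes of the 9 genes were well above background, and 2 arrays per group limit their precision.

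Signs turned without control 2 for TXN, MSRB3 and NFE2L2, without embelin 2 for TXNRD1 and without embelin 1 for OSGIN1. With an array left out TXN ran from -0.0427 to 0.217 (dimmer probe -0.116 to 0.345), MSRB3 from -3.54 to 0.0155, NFE2L2 from -0.117 to 0.514, TXNRD1 from -0.0875 to 0.745 and OSGIN1 from -0.366 to 0.0441. NFE2L2 was -0.153 as the mean over its probes. The dimmer GCLM probe was 0.0197 under normexp and 0.0234 after quantile normalization, and ran from -0.177 to 0.173 with an array left out. None of these values was called under any alternative.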
